A study of Mus musculus with 33 samples.

Results

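The last step of a mouse reprogramming series was examined: 3 libraries of SSEA1+ cells at the iPS (induced pluripotent stem cell) stage were compared with 3 libraries of SSEA1+ cells sorted on day 12. These 6 libraries were chosen by their labels from 33. The whole series followed mouse embryonic fibroblasts (MEFs) through days 3, 6, 9 and 12 of reprogramming to the iPS stage, sorted at each stage into SSEA1- and SSEA1+ cells, with 3 libraries in each of 11 groups. All cells carried the strain label 129SV/Jae/C57BL6J. MEFs were kept in MEF medium, and reprogramming took place in embryonic stem cell medium with dox (doxycycline, a drug used to switch on introduced genes) and AA. Both groups of the step were labelled as reprogramming intermediates, were detached with trypsin and were sorted by flow cytometry after antibody staining. The labels give no day for the iPS stage and do not say whether dox was still present then. They name neither the reprogramming genes nor the way these were introduced, and the 3 replicates of a group are not said to be separate cultures. The p-values rest on the spread within groups, estimated over all 33 libraries, and this spread may be technical.

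SSEA1 is a carbohydrate antigen on the surface of early mouse embryo cells and mouse pluripotent stem cells, and it appears during reprogramming before the full pluripotency programme is in place. Reprogramming to the pluripotent state is commonly driven by introduced copies of Pou5f1, Sox2, Klf4 and Myc, which fibroblasts must later replace with their own pluripotency network. In embryonic stem cells this network is maintained alongside glycolytic metabolism, 2 active X chromosomes in female cells and low but measurable activity of some germline genes.

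Between 16.7 and 26.76 M reads per library were counted in genes, and 20283 to 20797 genes had at least 1 read. A gene with no read could still have had up to 3 counts, which is 0.109 to 0.167 CPM (reads of a gene per 1000000 normalised reads) in these libraries. That floor covers counting error only. Replicates correlated at 0.954 to 0.986 (Pearson, across genes, log2 CPM). On the first principal component, which held 39.5% of the variance of the 33 libraries, the day 12 libraries lay at 154.2, 144.6 and 122.3 and the iPS libraries at 184, 207.3 and 212.3. Day 12 replicate 1 stood apart from its group: T, a primitive streak transcription factor, was at 86.2 CPM there against 0.893 and 0.28 CPM in replicates 2 and 3, and Foxa2, an endoderm and node factor, at 27.5 against 0.255 and 0.0933 CPM. The same library was the lowest of the day 12 libraries for many of the genes that fell. Among the iPS libraries, replicate 3 had the highest 2-cell-stage levels and replicate 1 the highest fibroblast levels.

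The labelled cell state was checked against marker genes. Nanog, Esrrb, Zfp42 and Dppa5a, all markers of pluripotent cells, were detected throughout, the lowest of their values in the 6 libraries being 73 CPM (Zfp42, day 12 replicate 3). The summed level of 40 mesenchymal and fibroblast genes was 3471 to 4537 CPM on day 12 and 2171 to 3771 CPM in iPS cells, against 166100 to 215300 CPM in MEFs. The 13 immune cell markers summed to 244 to 294 CPM on day 12 and 202.5 to 248 CPM in iPS cells. Laptm5, a lysosomal membrane protein, made up most of this, at 238.5, 255.6 and 211.8 CPM and then 160.5, 140.6 and 153.1 CPM. Cd68, also lysosomal, was at 24.6 to 26.5 CPM and then 67.6, 98.8 and 34.5 CPM without being called, and Cd79a, at no more than 1.68 CPM, was called up. Ptprc, the marker common to blood cells, was at no more than 0.0557 CPM in these 6 libraries. The 25 keratinocyte genes summed to 323, 905.5 and 1172 CPM on day 12 and 388, 194 and 233 CPM in iPS cells. Within that list the basal keratins Krt5 and Krt14 did not exceed 3.78 CPM. The part of such cells in the results was not tested.

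Of 17326 genes tested, 648 (3.74%) rose and 997 (5.75%) fell from day 12 to the iPS stage, 1645 (9.49%) in all, at a Benjamini-Hochberg adjusted p under 0.05 and a change of at least 2-fold (edgeR's quasi-likelihood test). The median log2 change over all tested genes was -0.015. The decreases were also larger: 308 genes fell and 126 rose at least 8-fold, and 67 fell and 13 rose at least 32-fold. The share of increases among the calls depended on which libraries set the spread, being 39.4% when all 33 libraries were fitted, 49.5% (930 up, 948 down) with the 15 SSEA1+ libraries and 56.4% (803 up, 622 down) with only the 6 libraries compared. Leaving out day 12 replicate 2, day 12 replicate 3 or iPS replicate 3 lowered the count of increases to 292, 297 and 406, and leaving out day 12 replicate 3 lowered that of decreases to 577. The values of the groups did not overlap in 622 of the 648 rising genes and 866 of the 997 falling genes. Over all tested genes they did not overlap in 32.2%, 16.6% being higher and 15.6% lower in iPS cells. The median rising gene was at 0.916 CPM in MEFs, 0.787 CPM in day 9 SSEA1+ cells, 2.06 CPM on day 12 and 9.1 CPM in iPS SSEA1+ cells. The median falling gene was at 14.4, 18.3, 9.62 and 1.81 CPM in the same 4 groups. This median was thus already lower on day 12 than on day 9, which need not hold for each gene.

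Gene lists for pathways, cell types and complexes, 46 in all, were read against these shares. The plot of list counts shows where called genes gathered. Rising members were frequent in the germline, trophoblast and glycolysis lists. The share of the 2-cell-stage list is not read here, since 7 of its 14 members did not pass the filter on low counts and the others were favoured by their iPS level. Falling members were frequent in the Hox, AP-1, mesenchymal, FGF and keratinocyte lists.

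**Figure D1:**
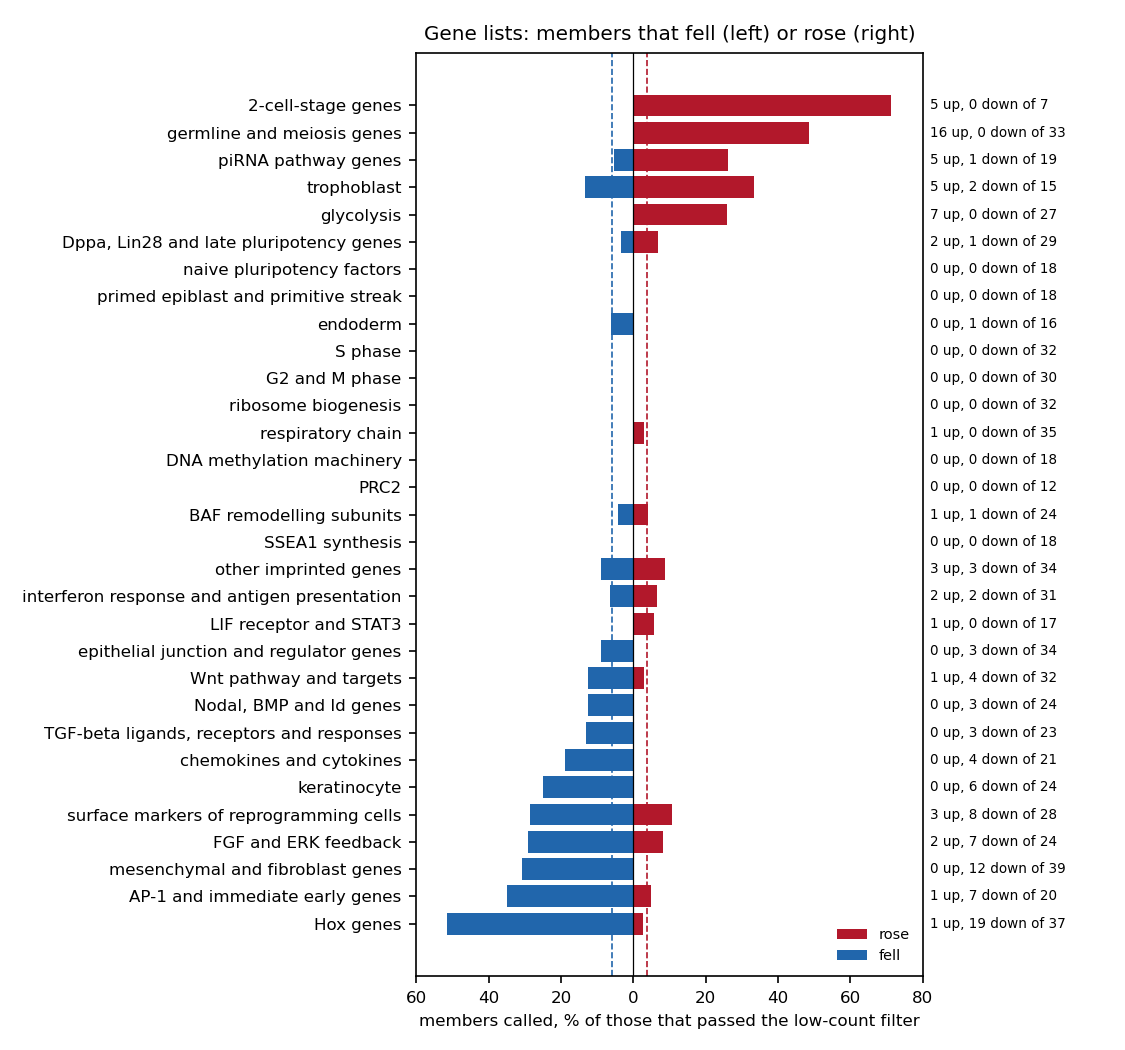
For each gene list the bar to the right gives the percentage of its tested members that rose from day 12 to iPS SSEA1+ cells and the bar to the left the percentage that fell, with the shares over all tested genes, 3.74% and 5.75%, as dashed lines. The germline list reaches 48.5% up and the Hox list 51.4% down; the 2-cell-stage bar rests on the 7 of 14 members that passed the filter on low counts.

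Myc, a growth-promoting transcription factor and one of the usual reprogramming factors, had the lowest adjusted p of the 4 factor genes and the one decrease among them. It was at 271, 735 and 651 CPM in day 12 replicates 1, 2 and 3 and at 3.03, 5.07 and 7.34 CPM in the 3 iPS libraries, so the groups were far apart. The log2 change was -6.74 ± 0.50 (SE, adjusted p = 4.9e-09), and it stayed between -7.09 and -6.47 when any of the 6 libraries was left out. The iPS level was also below that of MEFs, 97.7 CPM on average, while day 9 SSEA1+ cells had 876 CPM. In SSEA1- cells Myc was at 202, 246 and 459 CPM on day 12 and 22.9, 27.1 and 60.2 CPM at the iPS stage, and the difference between both steps was itself called (-3.71 on the log2 scale, adjusted p = 0.00084). Reads of introduced and endogenous copies of the factor genes cannot be told apart in these counts.

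The other factor genes did not pass the test. Pou5f1, the central pluripotency factor, was at 429, 385 and 293 CPM on day 12 and at 317, 334 and 547 CPM in iPS cells (log2 change 0.12 ± 0.64, adjusted p = 0.94). Sox2, its partner on DNA, went from 485, 550 and 462 to 562, 624 and 681 CPM (0.32, adjusted p = 0.82). For Klf4 the values were 397, 594 and 565 and then 310, 243 and 515 CPM (-0.54 ± 0.36, adjusted p = 0.36). Only Sox2 had groups that did not overlap. Mycn, the Myc relative active in embryonic stem cells, was measured at 162, 138 and 108 CPM on day 12 and 190, 155 and 148 CPM at the iPS stage, and was not called.

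None of the 18 naive pluripotency factors was called in either direction by edgeR or DESeq2, 1 had an unadjusted edgeR p under 0.05, and their median log2 change was 0.437. With only the 6 libraries fitted, 3 of them rose, Nanog and Prdm14 among them. Nanog, a homeobox factor that stabilises the pluripotent state, was at 544, 486 and 417 CPM on day 12 and 975, 627 and 1437 CPM in iPS cells, higher in each iPS library than in any day 12 library. The change of 1.07 ± 0.73 (log2) had an adjusted p of 0.38. Tfcp2l1, a target of LIF signalling, was higher by 0.88 ± 0.51 in iPS cells without being called. Prdm14, which represses differentiation and methylation genes, had 50.5, 48.4 and 31.7 CPM and then 95.6, 79.2 and 116 CPM (1.16 ± 0.70). Esrrb moved less, from 604, 501 and 342 to 600, 667 and 740 CPM. Zfp42 (Rex1) differed mainly among the day 12 libraries, at 277, 188 and 73 CPM, against 244 to 277 CPM in iPS cells.

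Of 29 late pluripotency genes 2 rose and 1 fell (6.9% and 3.45%), near the 3.74% and 5.75% of all genes. Their median log2 change was 0.896. With only the 6 libraries 6 rose, and with the 15 SSEA1+ libraries 9. Pecam1, an adhesion receptor used as a late reprogramming marker, was at 63.8, 38.9 and 28.1 CPM on day 12 and 156, 138 and 181 CPM in iPS cells. The change was 1.86 ± 0.57 (log2, adjusted p = 0.028), and it lost its call (adjusted p up to 0.15) without any 1 of 5 of the 6 libraries, all but day 12 replicate 1. Rhox9, an X-linked homeobox gene of germ cells, had 5.68, 4 and 4.11 CPM and then 71.5, 12.1 and 7.08 CPM. Its increase of 2.72 ± 0.66 (adjusted p = 0.008) rested on iPS replicate 1, without which it was 1.06 and not called. Mras, a Ras-family GTPase, fell by 1.2 (adjusted p = 0.026, up to 0.17 when 1 of 4 libraries was left out), from 19.8, 41.9 and 51.6 to 9.72, 8.69 and 30.9 CPM. Dppa5a, an RNA-binding protein of pluripotent cells, was measured at 858, 543 and 296 CPM on day 12 and 1666, 945 and 1418 CPM in iPS cells (1.25 ± 0.77, adjusted p = 0.32).

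The germline list held the most increases of the 46 lists. Of 33 germline and meiosis genes tested, 16 rose and none fell, with a median log2 change of 2.2, beside 3.74% of all genes called up and a median of -0.015. Their summed level was 292 to 388 CPM on day 12 and 962 to 1305 CPM in iPS cells. It was 32 to 38.6 CPM in MEFs and 101.5 to 131 CPM in day 9 SSEA1+ cells. The count depended on the libraries. It was 25 with only the 6 libraries fitted, 10 without day 12 replicate 2 and 7 without day 12 replicate 3. Without any 1 of the other libraries it was 12 to 16. By the median of per-gene differences the rise was not larger than in the steps beside it. The median difference of the list was -0.922 from the day 9 to day 12 step and -0.857 from the SSEA1- step (log2). Over all genes these medians were -0.103 and -0.159. Mean list levels, as log2(CPM + 1) relative to day 12 SSEA1+ cells, did not show a smaller rise. They were -1.56, -1.45 and -1.4 in day 9 SSEA1+ cells and 1.88, 1.54 and 1.4 in iPS SSEA1+ cells. In SSEA1- cells they were -1.46, -1.22 and -1.48 on day 12 and -0.893, -0.696 and 0.352 at the iPS stage, replicate 3 being the highest.

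The promoters of these genes are shown because many germline genes carry 2 short elements bound by a silencing complex, PRC1.6: the E-box CACGTG, read by the subunits MGA and MAX, and the E2F6 element GCGGGAA, which a search of the opposite strand finds as the letters TTCCCGC. The E-box reads the same on either strand. RefSeq promoter windows (build GRCm38.p6) were matched by symbol for 44 of 51 germline and piRNA genes, and the 250 bases before each start are printed 5′ to 3′, with these elements in capitals. The first 4 genes rose and hold at least 1 element, and Dazl rose and holds neither.
Sycp3, chr10:88459337-88459586, plus strand: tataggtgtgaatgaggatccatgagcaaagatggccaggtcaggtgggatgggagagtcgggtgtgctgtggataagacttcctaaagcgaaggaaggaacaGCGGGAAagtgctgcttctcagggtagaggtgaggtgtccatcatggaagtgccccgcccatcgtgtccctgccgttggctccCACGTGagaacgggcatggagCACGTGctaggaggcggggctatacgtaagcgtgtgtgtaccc
Ddx4, chr13:112652311-112652560, minus strand: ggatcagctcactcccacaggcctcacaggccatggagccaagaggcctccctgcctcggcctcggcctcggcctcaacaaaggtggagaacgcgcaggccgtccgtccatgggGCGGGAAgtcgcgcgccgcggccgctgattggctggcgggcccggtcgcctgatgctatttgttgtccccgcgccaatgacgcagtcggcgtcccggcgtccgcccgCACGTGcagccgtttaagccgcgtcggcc
Hormad1, chr3:95559427-95559676, plus strand: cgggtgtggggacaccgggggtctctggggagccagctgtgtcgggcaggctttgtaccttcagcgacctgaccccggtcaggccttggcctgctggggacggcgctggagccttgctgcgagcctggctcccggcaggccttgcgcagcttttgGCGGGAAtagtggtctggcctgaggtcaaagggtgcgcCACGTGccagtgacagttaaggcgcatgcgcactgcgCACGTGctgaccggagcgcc
Taf7l, chrX:134476491-134476740, minus strand: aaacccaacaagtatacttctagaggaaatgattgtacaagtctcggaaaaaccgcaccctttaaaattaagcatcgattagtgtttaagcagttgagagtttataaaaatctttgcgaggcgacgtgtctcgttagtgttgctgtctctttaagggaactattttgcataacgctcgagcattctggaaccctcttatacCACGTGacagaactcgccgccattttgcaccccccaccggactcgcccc
Dazl, chr17:50293621-50293870, minus strand: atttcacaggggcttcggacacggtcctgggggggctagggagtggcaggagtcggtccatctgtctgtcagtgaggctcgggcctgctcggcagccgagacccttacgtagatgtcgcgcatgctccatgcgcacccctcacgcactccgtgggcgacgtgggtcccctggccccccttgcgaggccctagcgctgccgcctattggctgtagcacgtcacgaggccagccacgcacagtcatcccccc
In windows reaching 50 bases past the start, CACGTG or the E2F6 element was found on either strand in 14 of 18 germline and piRNA genes that rose (77.8%). It was found in 13 of 26 that were tested and did not rise (50%), in 2358 of 12290 tested genes with a window and in 12.8% of all 27025 genes with one. Among all rising genes with a window the share was 19.4%, near that of all tested genes. A match is a string of letters, and binding was not measured here. Of the subunits, Mga was at 309, 187 and 187 CPM on day 12 and 343, 368 and 290 CPM in iPS cells, a change under the 2-fold limit (0.55 ± 0.17, adjusted p = 0.034), while Max (-0.10), E2f6 (-0.10), L3mbtl2 (0.41) and Pcgf6 (0.06) did not pass the test.

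Stra8, which is switched on when germ cells commit to meiosis, was at 0.873, 0.553 and 0.14 CPM on day 12 and 6.69, 5.85 and 28.1 CPM in iPS cells (log2 change 4.67 ± 1.09, adjusted p = 0.0092, 0.055 without day 12 replicate 3). Its highest value was in iPS replicate 3, and no values overlapped. Ddx4 (Vasa), the germ cell RNA helicase, went from 6.77, 4.12 and 3.97 to 40.4, 26.9 and 27.6 CPM (2.67 ± 0.51, adjusted p = 0.00091). Sohlh2, a helix-loop-helix factor of spermatogonia and oocytes that was named for its large increase and is in none of the lists, rose from 14.2, 8.12 and 9.33 to 120, 70.5 and 93.9 CPM (3.17 ± 0.74, adjusted p = 0.0047). Dazl, an RNA-binding protein that licenses germ cells, had 19.14, 11.4 and 11 CPM and then 159, 39.9 and 45.3 CPM. Its increase of 2.56 ± 0.75 (adjusted p = 0.024) was 1.62 and not called without iPS replicate 1. The call was also lost without day 12 replicate 2 or 3.

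Smc1b, a meiotic cohesin, was at 27.6, 16.8 and 20.9 CPM on day 12 and 139, 150 and 99.2 CPM in iPS cells (2.57 ± 0.52, adjusted p = 0.0015). Sycp3, a core of the chromosome axis, was at 4.29, 1.45 and 1.4 CPM and then at 31.8, 15.3 and 5.46 CPM (2.87 ± 0.64, adjusted p = 0.0035), the iPS replicates differing by more than 5-fold among themselves. Meioc, which sustains the meiotic programme, rose from 3.71, 2.04 and 2.57 to 32.2, 25.5 and 17.1 CPM (3.17 ± 0.45, adjusted p = 3.3e-05). Hormad1, an axis checkpoint protein, rose by 2.34 ± 0.69 from 12.3, 7.53 and 5.79 to 57.5, 50.9 and 21.9 CPM (adjusted p = 0.026, and up to 0.13 when 1 of 4 libraries was left out). The cohesin gene Stag3 missed the threshold at 62.7, 66 and 50.7 and then 188, 199 and 151 CPM (1.59 ± 0.56, adjusted p = 0.058), although its groups did not overlap. Prdm9 (-0.70) and Rec8 (-0.13) were the members with lower means in iPS cells, and neither was called.

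Taf7l, a TFIID subunit encoded on the X chromosome, went from 2, 1.11 and 0.84 to 32.9, 9.64 and 10.2 CPM (3.73 ± 0.62, adjusted p = 0.00026). Taf9b, another X-linked TFIID subunit, was at 4.99, 5.23 and 5.51 CPM on day 12 and 25.1, 37.3 and 13.2 CPM in iPS cells (2.26 ± 0.31, adjusted p = 2.5e-05). Taf9b was also the one member of the list whose change differed from that of the SSEA1- cells, being 1.71 higher on the log2 scale. Brdt, the testis bromodomain protein, rose by 2.45 from 0.91, 0.638 and 1.59 to 7.28, 4.79 and 5.04 CPM. Syce1, Slc25a31, Tex14, Tex11 and Stk31 rose as well, and each lost its call without 1 or more of the libraries.

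In the piRNA pathway, which makes small RNAs against transposons in germ cells, 5 of 19 genes rose and 1 fell (median log2 change 1.55). These were 26.3% and 5.26%, beside 3.74% and 5.75% of all genes. Ddx4 and Mael belong to both lists. Mael, a protein of the germ granule, was at 9.17, 4 and 4.06 CPM and then 24.1, 29.9 and 25 CPM (2.2 ± 0.69, adjusted p = 0.038, lost in 5 of 6 omissions of a library). Mov10l1, the helicase that feeds precursors into the pathway, rose by 2.15 (adjusted p = 0.027) from 4.62 to 6.19 CPM on day 12 to 47.9, 16.5 and 8.71 CPM. It rose by 1.2 without a call when iPS replicate 1 was left out, and its call was also lost without any 1 day 12 library. Piwil4, a nuclear Piwi protein, moved the other way, from 3.46, 3.57 and 6.67 to 1.54, 0.947 and 0.892 CPM (-2.01 ± 0.53, adjusted p = 0.012, lost without day 12 replicate 3, iPS replicate 2 or iPS replicate 3). Piwil2 was at 38.4 to 54.8 CPM on day 12 and 33.2 to 63.5 CPM in iPS cells. Without day 12 replicate 2 the list had 1 increase, and 2 without day 12 replicate 3 or iPS replicate 1.

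Genes of the 2-cell embryo flicker on in a small share of embryonic stem cells. Of the 14 with an ID, 1 had a mean over 1 CPM on day 12, and 11 had one at the iPS stage. That 1 member made up most of the summed day 12 level, which was 208, 175.5 and 149 CPM. The sum in iPS cells, 234, 166 and 243 CPM, overlapped with it. Of 14 such genes, 7 passed the filter on low counts and 5 of these rose, but a gene off on day 12 could pass only through its iPS level. Zscan4d, a zinc finger gene of a tandem cluster whose copies share sequence, had no read in the 3 day 12 libraries and 1.12, 0.669 and 9.18 CPM in iPS cells, at least 29.1-fold higher against a floor of 3 counts per library. Tmem92 was also without reads on day 12 and was at 4.67, 0.836 and 13.7 CPM in iPS cells, at least 51-fold higher. Usp17le, a deubiquitinase of another multi-copy family, rose from 0.0364, 0.0425 and 0.233 to 4.09, 0.613 and 8.24 CPM. Replicate 3 was the highest iPS library for these 3 genes and replicate 2 the lowest. Without iPS replicate 3 the list had 3 increases, and DESeq2 called 1.

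**Figure D2:**
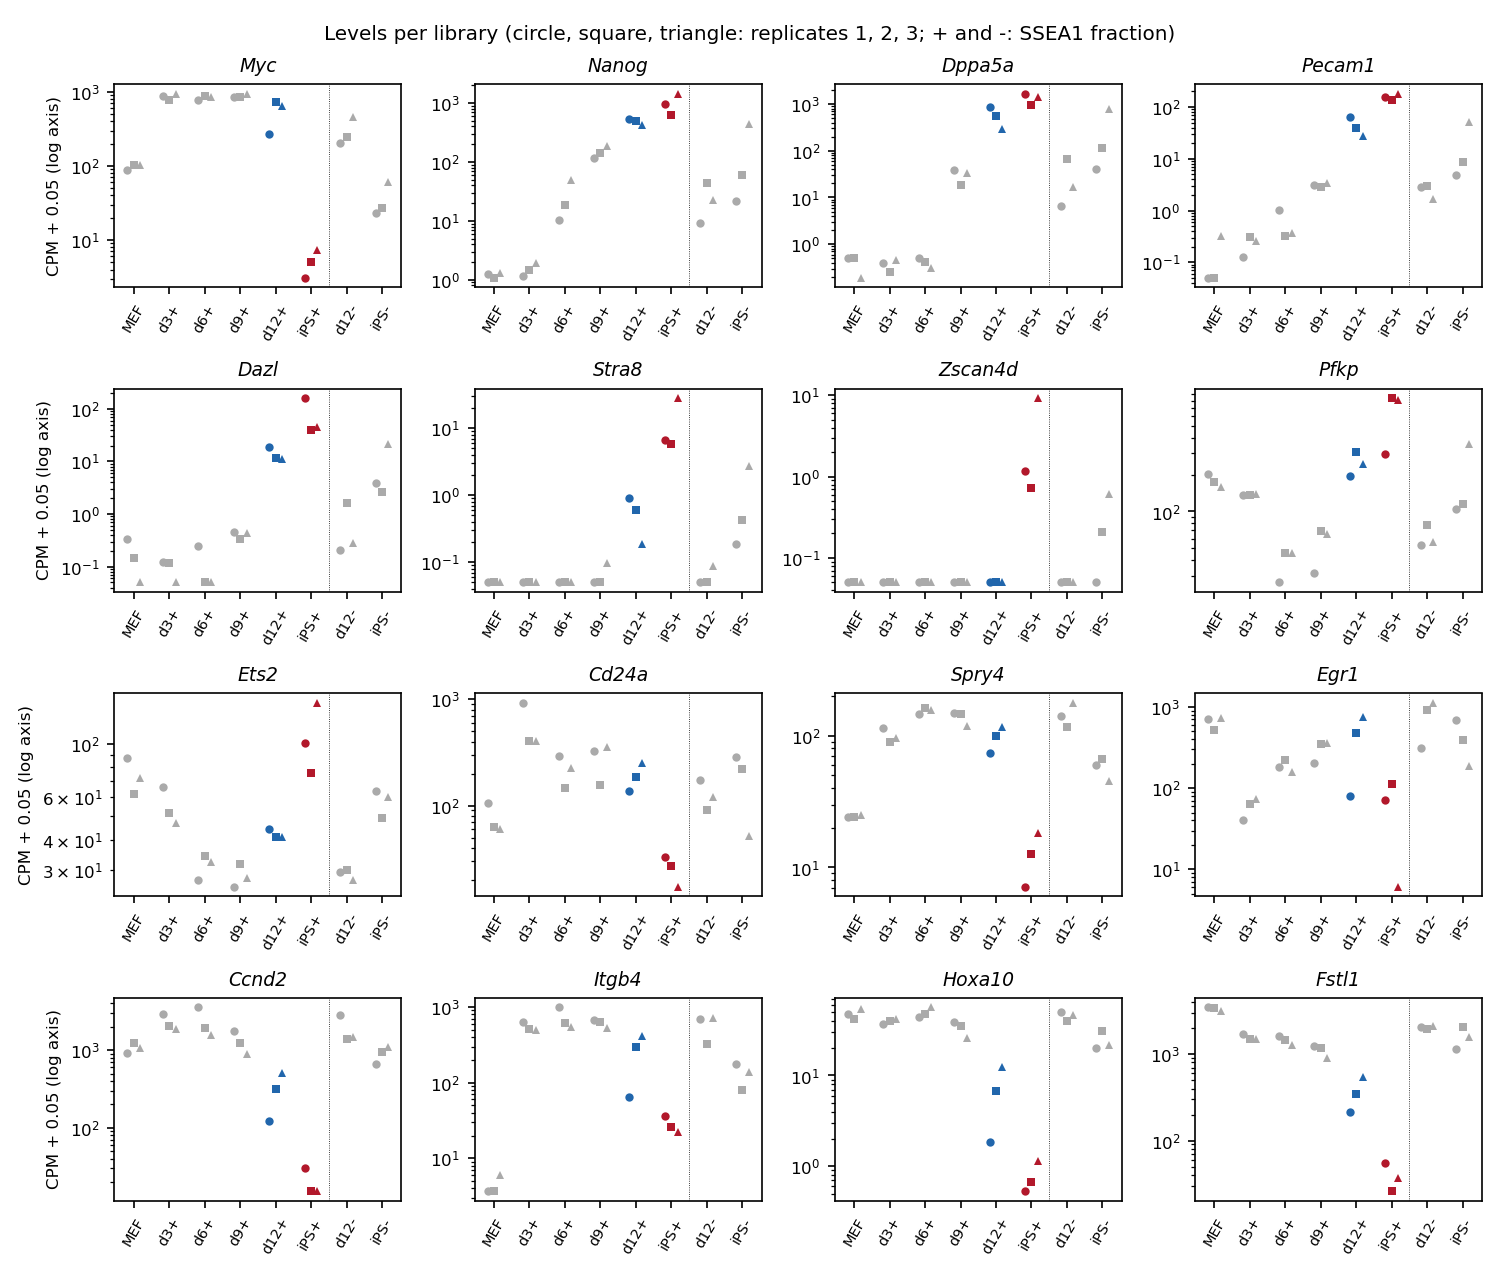
CPM of 16 genes on a log axis (CPM + 0.05) in each library of MEFs, SSEA1+ cells of days 3 to 12 and the iPS stage, and SSEA1- cells of day 12 and the iPS stage, with circle, square and triangle for replicates 1, 2 and 3. Myc is lowest in iPS SSEA1+ cells (3.03 to 7.34 CPM), Dazl and Stra8 are highest there, and Zscan4d has no read in day 12 SSEA1+ cells.

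Glycolysis genes were higher at the iPS stage, 7 of 27 being called up (25.9%, beside 3.74% of all genes) and none down. Their median log2 change was 0.743, and 24 means were above those of day 12. Aldoa, which splits fructose bisphosphate, was at 1771, 1963 and 1724 CPM on day 12 and 3606, 5002 and 4030 CPM in iPS cells (1.21 ± 0.30, adjusted p = 0.0071). Pfkp, a platelet-type phosphofructokinase at the committed step, had 196, 307 and 243 CPM and then 294, 837 and 813 CPM (1.38 ± 0.38, adjusted p = 0.016), so that iPS replicate 1 lay within the day 12 range. Pfkfb3, whose product activates phosphofructokinase, rose by 1.53 ± 0.38 from 22.5 to 34.8 CPM on day 12 to 60.3, 102 and 80.8 CPM (adjusted p = 0.0078). Pdk3 and Pdk4, kinases that inhibit pyruvate dehydrogenase, rose by 1.31 and 1.36, Pdk3 from 45, 34.9 and 35.3 to 89.8, 89.9 and 105 CPM. Ldhb and the X-linked Pgk1 were also called up (1.29 and 1.1). Pfkp, Pdk4 and Pgk1 lost their calls without 1 or more of the libraries (adjusted p up to 0.08, 0.086 and 0.16), and the list had 4 increases without day 12 replicate 3 or iPS replicate 2. Of 35 respiratory chain genes 1 was called (2.86%, near the 3.74% of all genes that rose), Cox7a1, a muscle-type cytochrome oxidase subunit, up by 1.64.

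Among 15 trophoblast genes 5 rose (33.3%) and 2 fell (13.3%), beside 3.74% and 5.75% of all genes. The members that moved did not form one direction. Ets2, needed for trophoblast stem cells, rose from 44.3, 41 and 40.9 to 100, 75.8 and 148 CPM (1.36 ± 0.21, adjusted p = 8.8e-05). Hand1, Esx1, Gata3 and the imprinted Ascl2 rose from low levels, Esx1 from 0.91, 0.638 and 0.513 to 11.1, 5.91 and 19.9 CPM (4.15 ± 0.91). Tfap2a, which is also an epidermal and neural crest factor, fell from 4.08, 19.3 and 35.6 to 1.81, 3.29 and 1.73 CPM (-3.11 ± 0.59, adjusted p = 0.00084). Elf5 fell by 4.62, to no more than 0.279 CPM in the iPS libraries. Without day 12 replicate 3 or iPS replicate 3 the count of increases was 3.

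Of 34 imprinted genes outside the Dlk1-Dio3 locus 3 rose and 3 fell (8.82% each, near the 3.74% and 5.75% of all genes), with a median log2 change of 0.021. Usp29, a paternally expressed gene next to Peg3, rose from 0.582, 0.723 and 0.467 to 12.8, 6.74 and 7.82 CPM (3.93 ± 0.77, adjusted p = 0.0016). Slc38a4, an amino acid transporter of placenta and liver, rose from 124, 74.8 and 80 to 374, 258 and 238 CPM (1.64 ± 0.28, adjusted p = 0.00026). Grb10, a growth-restraining adaptor, was the most abundant of the falling members by CPM and went from 756, 819 and 1028 to 184, 216 and 150 CPM (-2.24 ± 0.26, adjusted p = 1.9e-06). Nnat, a membrane protein of neural tissue, fell from 55.6, 71.4 and 117 to 5.68, 6.02 and 4.35 CPM (-3.92 ± 0.84, adjusted p = 0.0025). The groups were apart in all 4 genes. Airn, an antisense transcript of the Igf2r locus whose reads cannot be told from those of overlapping genes if strand was ignored, as the names of the deposited tables say, was called down by 2.22 with adjusted p = 0.047. At the Dlk1-Dio3 locus, whose silencing marks some iPS lines, none of 5 genes was called by edgeR or DESeq2, and 1 had an unadjusted edgeR p under 0.05. Meg3, its maternally expressed RNA, spread widely within both groups, at 76.2, 275 and 523 CPM on day 12 and 58.3, 142 and 73.6 CPM in iPS cells (-1.67 ± 1.02, adjusted p = 0.31).

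The X chromosome held a higher share of rising genes than any other. Of 656 X-linked genes tested, 70 rose (10.7%) and 28 fell (4.27%), and their median log2 change was 0.446, while on the other chromosomes 1.81 to 5.37% of genes rose. In each library the median X-linked gene was compared with the median of 16024 autosomal genes, both relative to the day 12 mean. That difference was 0.133, -0.044 and -0.099 on day 12 and 0.448, 0.43 and 0.485 at the iPS stage, with no overlap. The iPS libraries exceeded the day 12 libraries by 0.458 on average (exact two-sided permutation p = 0.1, the smallest that 3 against 3 allows). It was 0.438 with genes of at least 10 CPM and 0.402 to 0.533 when any of the 6 libraries was left out. The day 12 library with the highest X level was replicate 1. Day 9 SSEA1+ cells were at -0.287 to -0.25, and iPS SSEA1- cells at 0.031 to 0.238.

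Xist, the RNA that coats and silences 1 X chromosome in female cells, changed in the opposite direction. It was at 96.3, 303 and 624 CPM on day 12 and 17.1, 48.2 and 12.1 CPM in iPS cells (log2 change -3.73 ± 0.77, adjusted p = 0.002), with no overlap. Rlim, an X-linked activator of Xist, was at 262, 176 and 180 CPM and then 358, 472 and 187 CPM, a difference under the 2-fold limit (0.72 ± 0.24, adjusted p = 0.043). Xist was lower in replicate 1 than in replicates 2 and 3 at each SSEA1+ stage up to day 12 and in MEFs, and the labels give no sex for the cells. The part that this spread between replicates has in the result was not tested. Rising X-linked genes included Taf7l, Taf9b, Esx1, Rhox9, Pgk1, Pdk3 and Otud6a, a deubiquitinase gene at 1.31, 0.723 and 0.653 CPM on day 12 and 10.1, 8.08 and 15.1 CPM in iPS cells.

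**Figure D3:**
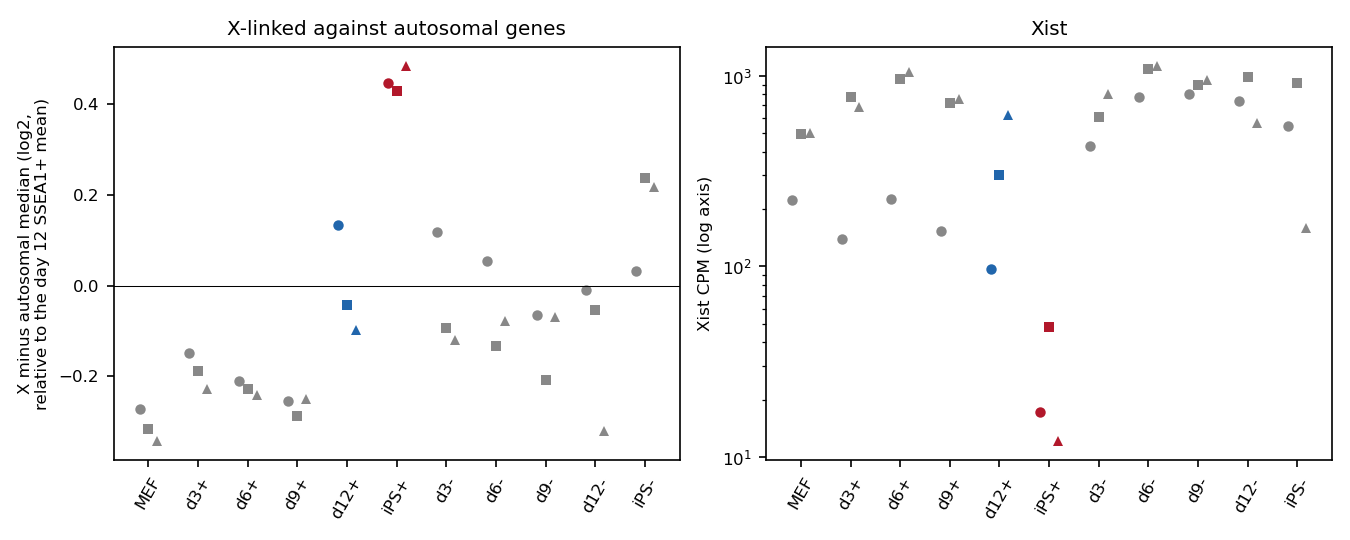
Left, the X-linked minus autosomal median (log2, relative to the day 12 SSEA1+ mean) in each of 33 libraries, by group. Right, Xist in CPM on a log axis in the same libraries, with circle, square and triangle for replicates 1, 2 and 3; iPS SSEA1+ libraries have the highest X values, 0.43 to 0.485, and Xist of 12.1 to 48.2 CPM.

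Of 24 FGF and ERK genes 7 fell (29.2%) and 2 rose (8.33%), beside 5.75% and 3.74% of all genes. Spry4, an inhibitor that ERK signalling itself induces, was at 74, 99.2 and 117 CPM on day 12 and 7.06, 12.7 and 18.2 CPM in iPS cells (-2.94 ± 0.25, adjusted p = 3.9e-08). Dusp6, the phosphatase that acts on ERK, went from 99.7, 118 and 185 to 25.4, 28.1 and 11 CPM (-2.64 ± 0.34, adjusted p = 1.1e-05). Both genes had groups that did not overlap, and both kept their call in each omission of 1 library. Spry2, Spred1, Etv1 and Dusp5, likewise feedback or target genes of the pathway, fell with log2 changes of -1.1, -1.11, -1.79 and -1.81, that of Spry2 being under 2-fold without day 12 replicate 1 or iPS replicate 1 (-0.95 at the least).

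The receptors of the pathway moved in both directions. Fgfr1 fell from 153, 260 and 330 to 79.3, 94.5 and 120 CPM (-1.34 ± 0.24, adjusted p = 0.00045). Fgfr4 rose from 1.57, 1.45 and 1.21 to 8.39, 6.57 and 6.82 CPM (2.36, adjusted p = 0.002), and Fgfr3 rose by 2.17 (1.43 without iPS replicate 3, and then not called). The ligand Fgf4, which pluripotent cells make themselves, was at 252, 222 and 159 CPM on day 12 and 349, 342 and 464 CPM in iPS cells (0.87 ± 0.54, adjusted p = 0.32).

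Immediate early and AP-1 genes, which respond to growth signals and stress, fell in 7 of 20 cases (35%, beside 5.75% of all genes). The 1 that rose was Maff (5%, near the 3.74% of all genes). Egr1, a zinc finger factor induced by ERK, was at 79.6, 481 and 757 CPM on day 12 and 71.1, 111 and 6.03 CPM in iPS cells (-2.81 ± 0.80, adjusted p = 0.02). Nr4a1, an orphan nuclear receptor, went from 61.8, 188 and 271 to 45.7, 47.4 and 46.7 CPM (-1.9, adjusted p = 0.014). Egr2, Egr3, Fosb, Fosl2 and Jun were called down too, while Fos was not, at 77.3, 160 and 380 and then 118, 84 and 14.5 CPM. Day 12 replicate 1 was at or near the iPS level for most of these genes: the mean list level was -0.859 in it and 0.126 and 0.733 in replicates 2 and 3, against -0.64, -0.549 and -1.48 in the iPS libraries (log2, relative to the day 12 mean). Without day 12 replicate 3 the list had 1 decrease and without iPS replicate 3 it had 2. Egr1 and Nr4a1 both lost their calls without either of these libraries (adjusted p up to 0.12). With only the 6 libraries fitted 3 genes fell.

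**Figure D4:**
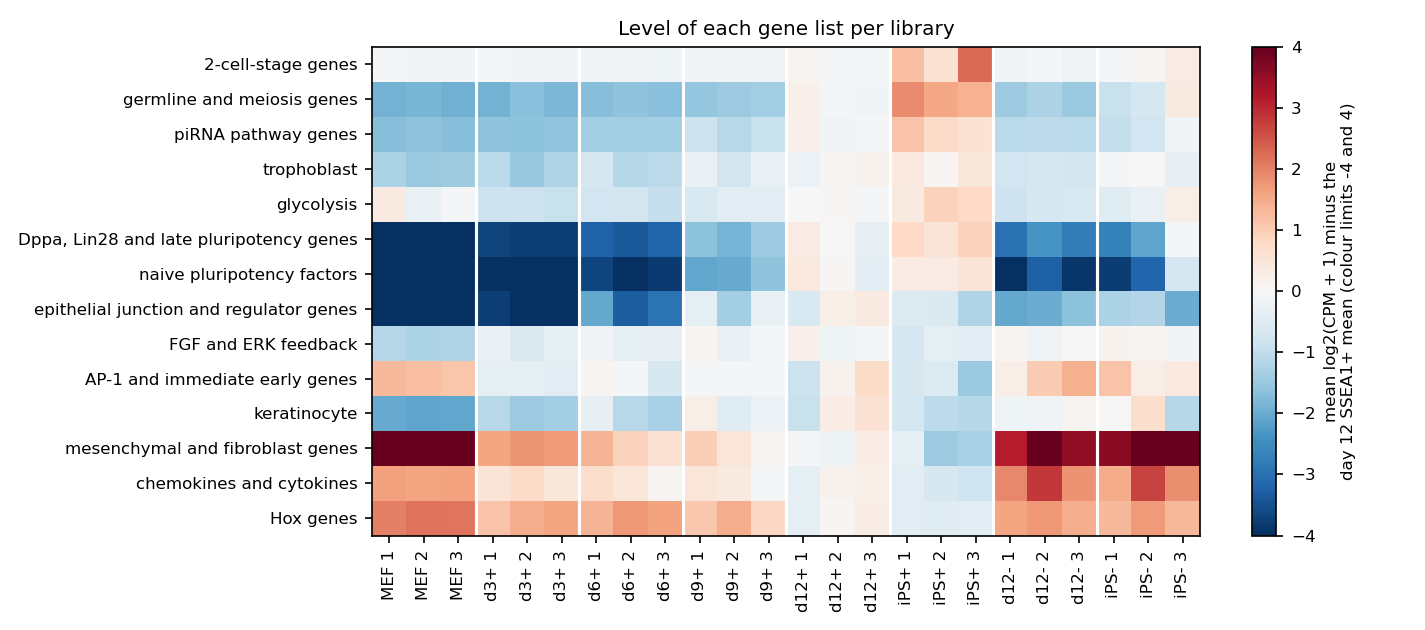
Mean log2(CPM + 1) of 14 gene lists in 24 libraries, as colour, relative to the mean of the 3 day 12 SSEA1+ libraries. Germline genes stand 1.4 to 1.88 higher in iPS SSEA1+ cells, and the AP-1 level of day 12 replicate 1 (-0.859) lies within the range of the iPS libraries.

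Hox genes, which set position along the body axis and are active in fibroblasts by their site of origin, were the list with the highest share of decreases. Of 37 tested 19 fell (51.4%) and 1 rose (2.7%), beside 5.75% and 3.74% of all genes, with a median log2 change of -2.22. Their summed level was 23.3, 50.7 and 71.7 CPM on day 12 and 25 to 32.8 CPM in iPS cells, against 421 to 474 CPM in MEFs. Hoxa10 was at 1.82, 6.63 and 12.3 CPM and then at 0.478, 0.613 and 1.1 CPM (-3.22 ± 0.44, adjusted p = 2.1e-05), and at 33.2 CPM in day 9 SSEA1+ cells. Hoxa9 fell from 1.2, 6.34 and 10.4 to 0.159, 0.223 and 0.997 CPM (-3.67 ± 0.58, adjusted p = 0.00014). All 9 members of the Hoxa cluster from Hoxa2 to Hoxa11 that were tested fell. Hoxb9 rose from 0.978 to 1.21 CPM on day 12 to 6.16, 2.67 and 1.63 CPM (1.67, adjusted p = 0.022), a call that was lost without iPS replicate 1 or any day 12 library. The count of decreases was 9 with only the 6 libraries fitted and 12 without day 12 replicate 3 or iPS replicate 3.

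Mesenchymal and fibroblast genes fell in 12 of 39 cases (30.8%, beside 5.75% of all genes) and rose in none, from levels already far below those of MEFs. Fstl1, a secreted glycoprotein of mesenchyme, was at 212, 347 and 549 CPM on day 12 and 55.1, 25.7 and 37.1 CPM in iPS cells (-3.23 ± 0.28, adjusted p = 5.4e-08). Vim, the intermediate filament of mesenchymal cells, fell from 256, 333 and 539 to 128, 135 and 97.8 CPM (-1.64 ± 0.34, adjusted p = 0.002). Col6a3, a collagen VI chain, fell from 13.6, 20.7 and 155 to 4.73, 1.34 and 1.52 CPM (-4.64, and -2.75 without day 12 replicate 3, its highest library), and the fibrillin gene Fbn1 fell by 2.17. Prrx1 and Zeb2, transcription factors of the mesenchymal state, were called down. Zeb2 was at 22.2 CPM in day 12 replicate 1 against 2.25 and 3.45 CPM in the others, and its change of -2.53 was -0.82 and not called without that library. Prrx1 (-2.17) had an adjusted p of 0.055 without day 12 replicate 3. Collagen I was not called: Col1a2 was at 65.4 to 91.6 CPM on day 12 and 67.5, 9.47 and 5.93 CPM in iPS cells. In such bulk libraries fewer cells of a type and less RNA per cell cannot be told apart. With only the 6 libraries fitted 6 members fell.

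Keratinocyte genes, which are active for a time in reprogramming cells, fell in 6 of 24 cases (25%, beside 5.75% of all genes) and rose in none. Itgb4, the hemidesmosome integrin, was at 64.9, 299 and 413 CPM on day 12 and 36.1, 25.9 and 22 CPM in iPS cells (-3.21 ± 0.49, adjusted p = 8.8e-05). Krt6a, a keratin of stressed epidermis, was at 0.873, 30.8 and 27.9 CPM and then at 0.212, 1.56 and 0 CPM (-5.07), with its lowest day 12 value, that of replicate 1, under the highest iPS value. Its call was lost without iPS replicate 1 or 3 (adjusted p up to 0.056). Of 34 epithelial junction genes 3 fell (8.82%, near the 5.75% of all genes), and 6 did without day 12 replicate 1. Pkp1, a desmosome plaque protein, had 3.49, 57.5 and 64.7 CPM and then 0.478, 1.34 and 0.21 CPM (-5.95 ± 0.87, adjusted p = 5e-05). Jup, plakoglobin, fell from 260, 395 and 397 to 137, 151 and 140 CPM (-1.3 ± 0.30, adjusted p = 0.0048). Cdh1, the E-cadherin of both epithelium and pluripotent cells, was at 616, 644 and 660 CPM and then 598, 552 and 451 CPM and was not called, nor was Epcam (-0.93 ± 0.45, adjusted p = 0.18).

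Of 28 surface markers used to follow reprogramming, 8 fell (28.6%) and 3 rose (10.7%), beside 5.75% and 3.74% of all genes. Cd44, a hyaluronan receptor of fibroblasts, fell from 18.4, 32.5 and 56.7 to 6.43, 2.17 and 1.31 CPM (-3.44 ± 0.51, adjusted p = 5.6e-05). Icam1, an adhesion molecule that sorts late intermediates together with Cd44, rose from 33.7, 27.6 and 24.2 to 112, 122 and 152 CPM (2.17 ± 0.51, adjusted p = 0.0049). The 2 markers thus moved apart, and neither had overlapping groups. Cd24a, a glycoprotein of epithelial progenitors, fell from 136, 186 and 253 to 33, 26.9 and 17.1 CPM (-2.9 ± 0.65, adjusted p = 0.0035). Podxl, a sialomucin of pluripotent cells, fell from 319, 469 and 749 to 104, 121 and 155 CPM (-2.02 ± 0.48, adjusted p = 0.0057). Ly6a (Sca1), Prom1 and Cd47 fell too (-5.27, -2.39 and -1.53), Prom1 losing its call without day 12 replicate 3 or iPS replicate 3. Pdpn, podoplanin, rose by 1.26 ± 0.39 from 25.3 to 33.5 CPM to 70.4 to 75.2 CPM, but its adjusted p of 0.033 went above 0.05 without any 1 of the 6 libraries. Without any library but day 12 replicate 1 the list had 1 increase. None of 18 genes for the synthesis of the SSEA1 epitope was called by edgeR or DESeq2, and 4 had an unadjusted edgeR p under 0.05. Fut9, the fucosyltransferase that makes it in mouse pluripotent cells, was at 33.3, 54 and 65.8 CPM on day 12 and 35.5, 50.5 and 20.9 CPM in iPS cells (-0.52 ± 0.49, adjusted p = 0.55).

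Secreted signals and their responses gave smaller counts. Csf1, Ccl2, Il33 and Cxcl1 fell among 21 chemokines and cytokines (19%, beside 5.75% of all genes). Csf1, the macrophage growth factor, went from 15.5, 28.1 and 43.4 to 8.34, 2.01 and 3.15 CPM (-2.69 ± 0.49, adjusted p = 0.00051). Of 23 TGF-beta genes 3 fell (13%, beside 5.75% of all genes), among them the ligand Tgfb2 (-2.44) and the receptor Tgfbr2 (-2.2). The list had 1 decrease with only the 6 libraries fitted, where Tgfbr2 had an adjusted p of 0.055, and 6 without iPS replicate 1. Without day 12 replicate 3 the change of Tgfbr2 was -1.32 and still called. Id1, Id3 and Id4, inhibitors of helix-loop-helix factors that BMP signals induce, fell among 24 Nodal, BMP and Id genes (12.5%). Id1 and Id4 lost their calls without day 12 replicate 3 and 1 of the iPS replicates (adjusted p up to 0.056 and 0.1). Id3 was at 46.1, 36.5 and 31.5 CPM on day 12 and 10, 5.63 and 4.67 CPM in iPS cells (-2.49). In the Wnt list 4 of 32 fell (12.5%), including the ligand Wnt5a (-2.91), and 1 rose (3.12%, near the 3.74% of all genes). Without day 12 replicate 1 these counts were 2 and 3. The rising gene, Tcf7, a nuclear effector of the pathway, went from 82.1, 64.5 and 48.3 to 169, 260 and 116 CPM (1.48 ± 0.32, adjusted p = 0.0027). Of 17 LIF and STAT3 genes 1 rose (5.88%, near the 3.74% of all genes). It was Pim1, a kinase gene induced by STAT3, which went from 114, 83.4 and 65 to 186, 201 and 184 CPM. Its increase was 1.13 ± 0.26 (adjusted p = 0.0046), and 0.95 without day 12 replicate 3.

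In the cell cycle lists few genes were called. None of 32 S phase and 30 G2 and M phase genes was called by edgeR or DESeq2, and 0 and 4 of them had an unadjusted edgeR p under 0.05. The means of 27 of the 30 G2 and M phase genes were nevertheless higher in iPS cells, with a median log2 change of 0.299 against -0.015 over all genes. Among 19 G1 genes 1 was called, down (5.26%, near the 5.75% of all genes). It was Ccnd2, cyclin D2, which fell from 124, 317 and 509 to 30.6, 15 and 15.4 CPM (-3.96 ± 0.58, adjusted p = 5e-05). Chromatin lists held few called genes as well: none of 18 DNA methylation, 12 PRC2, 15 H3K9 methylation and 18 histone chaperone genes passed the test in edgeR or DESeq2, and 3, 0, 4 and 1 of them had an unadjusted p under 0.05 in edgeR. Smarca2 (Brm), the alternative ATPase of BAF remodelling complexes, fell from 20.3, 57.2 and 89.9 to 16.6, 8.36 and 11.1 CPM (-2.21 ± 0.36, adjusted p = 0.00016). Smarcd3, a subunit of differentiated-cell BAF complexes, rose by 1.41 from 1.78 to 2.1 CPM to 3.93 to 6.14 CPM. At an unadjusted p under 0.05, 4647 of the 17326 genes passed.

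Genes with the largest single changes included several outside the lists. Alox15, a lipoxygenase, was at 4.91, 39.1 and 61.6 CPM on day 12 and 0.159, 0.111 and 0.21 CPM in iPS cells (-7.73 ± 1.06). Shisa3, an inhibitor of Wnt and FGF receptor maturation, fell from 14.7, 108 and 133 to 0.531, 0.557 and 0.472 CPM (-7.35 ± 0.77, adjusted p = 8.3e-07). Cd109, a co-receptor that restrains TGF-beta signalling, fell from 82, 349 and 609 to 12.4, 5.74 and 3.1 CPM (-5.61 ± 0.63, adjusted p = 1.9e-06). In all 3 genes day 12 replicate 1 was the lowest day 12 library and still above the iPS libraries. On the rising side, Col9a2, a cartilage collagen chain, went from 11.2, 5.95 and 6.16 to 73.3, 65.1 and 127 CPM (3.51 ± 0.81). Fat2, a giant protocadherin, rose from 1.06, 0.468 and 0.98 to 19.07, 7.41 and 15.8 CPM (4.07 ± 0.82, adjusted p = 0.0028).

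The step was tested against the change of SSEA1- cells between the same stages, which share no library with it. For 71 genes (0.41%) the change of the SSEA1+ cells was higher and for 250 (1.44%) it was lower, with a median difference of -0.159 over all genes. Hox genes were the list with the most differences, 8 of 37 lower, followed by 4 of 39 mesenchymal genes, including Fstl1, which differed by -2.88. In SSEA1- cells Fstl1 was at 2043, 1963 and 2106 CPM on day 12 and 1157, 2037 and 1594 CPM at the iPS stage, so its decrease was larger in the SSEA1+ cells. Selenoi, a selenoprotein enzyme of phospholipid synthesis, fell in SSEA1+ cells from 46.3, 59.5 and 61.4 to 8.5, 11.7 and 5.98 CPM and was at 59.8, 57.2 and 36.1 CPM in iPS SSEA1- cells (difference -2.62). Rnf213, a large ubiquitin ligase, rose from 24.4, 33 and 59.6 to 99.7, 105 and 110 CPM and differed by 1.92. The iPS SSEA1- replicate 3 stood apart from its group, with a mean naive pluripotency level of -0.674 against -3.79 and -3.18 in the others (log2, relative to day 12 SSEA1+ cells), and without it the counts were 179 and 513. They ranged from 34 to 78 higher and 105 to 329 lower without any 1 of the other 11 libraries. Equal replicate numbers deviated together in the SSEA1- groups (0.378, 0.447 and 0.271), and with the replicate number as a block over all 33 libraries the counts were 127 and 370.

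The step was also tested against the step before it, from day 9 to day 12 in SSEA1+ cells, with which it shares the day 12 libraries. By this test 13 genes (0.075%) changed more upward and 24 (0.139%) more downward in the last step. At an unadjusted p under 0.05, 1536 genes passed. A difference that was not called does not show that both steps were alike. Between days 9 and 12 the deviations of equal replicate numbers correlated at 0.31, 0.111 and 0.103. Day 12 replicate 3 correlated more with day 9 replicate 2 (0.239), so equal numbers did not always pair best. With the replicate block the counts were 20 and 39. Genes that changed more downward in the last step included Myc (difference -6.08), Spry4 (-2.44) and Pkp1 (-6.45). Elf4, an X-linked ETS factor, was at 8.01, 4.25 and 4.43 CPM on day 12 and 23.2, 23.8 and 53.1 CPM in iPS cells, after 11.5 CPM on day 9 (difference 3.63). Hoxa13 and Hoxd13, the most 5′ genes of their clusters, each differed by 4.09: Hoxa13 had 2.48 CPM on day 9, 0.327 to 0.383 CPM on day 12 and 0.557 to 1.15 CPM in iPS cells.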

How the data were processed

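RNA from sorted cells was extracted with the RNeasy Micro kit and poly-A selected for NEBNext Ultra Directional libraries, per the labels' protocols. The deposited values are raw read counts for each Ensembl gene, made by the authors and stored separately for each library. STAR 2.3.0, Picard 1.100, HTSeq 0.6.0 and build mm9 come from the submitters' processing notes; the sources used here do not give the annotation counted against. The names of the deposited tables call the counting not stranded, so antisense reads cannot be separated from those of the gene they overlap, and near-identical families (Zscan4, Usp17l) are uncertain.

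Of 37583 gene IDs, 32860 received a symbol and chromosome from GENCODE M21, whose build differs, so that it gave no coordinates; 4723 had no symbol and 3 symbols were shared. Summary lines were left out. In the 6 libraries 7.75 to 12.46% of reads fell in no gene, 2.41 to 2.7% were ambiguous and 24.38 to 27.24% had several alignments. No replicate pair agreed within sampling noise (chi-square over degrees of freedom 25.3 or more).

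edgeR 4.0.16 (R 4.3.3) was run on these counts with TMM factors, filterByExpr and robust quasi-likelihood tests. One model held all 33 libraries, each group with its own mean, and left 22 residual degrees of freedom; p-values were adjusted by Benjamini-Hochberg over 17326 genes. The standard error given is the size of the log2 change over the root of its F statistic. CPM are TMM-normalised, and a prior count of 2 was added for components and correlations. Differences between steps were contrasts in this model. The scripts were tested on simulated data. Alternatives were DESeq2 1.42.0, RLE factors, other filters and sets of libraries, a replicate block, removal of the GC trend and omission of each library.

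Lists held 1031 entries (984 distinct genes), 15 without a matching ID. The naming rule took the 15 largest increases and 15 largest decreases whose groups did not overlap and whose higher group averaged 10 CPM or more, without predicted genes, RIKEN clones, unnamed IDs and multi-copy small RNAs. It added up to 5 members per list by smallest p, all members of 4 short lists, and 5 genes by smallest p in each direction of each difference between steps. Other genes named, such as Dazl, Sycp3, Hormad1, Mael, Stag3, Pgk1, Hoxa9, Zeb2, Krt6a, Cdh1, Spry2, Fgfr4, Fgf4, Icam1, Pdpn, Podxl and Fut9, were chosen after their values were seen. The members and lists were chosen with earlier results of these data known. Equal replicate numbers did not pair the libraries of the step: deviations from group means correlated at 0.091, 0.109 and -0.037. For the SSEA1- step and for days 9 and 12 of SSEA1+ cells every correlation of equal numbers was over 0.1. The blocked counts therefore stand beside both differences between steps. For days 9 and 12 a pair of unequal numbers reached 0.239, above the 0.111 and 0.103 of equal numbers.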

Additional observations from a re-analysis of the deposited data

Results flagged for a closer look

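Results where the step differed between groups by a test of the difference itself are given here as values. Against the step of SSEA1- cells from day 12 to the iPS stage, 71 genes changed more upward and 250 more downward in SSEA1+ cells. The genes with the smallest p on the higher side were Cdhr1 (log2 difference 3.01), Gstm6 (3.54), Slc4a11 (2.06), Fam217b (1.72) and Rnf213 (1.92). Of these, Slc4a11, a membrane transporter, and Rnf213 also rose within the SSEA1+ cells, Slc4a11 from 22.4, 29.7 and 33.5 to 74.3, 55.3 and 47.2 CPM. Cdhr1, a photoreceptor cadherin, did not: it was at 13.2, 12.9 and 18.2 CPM on day 12 and 21.6, 36.6 and 13.6 CPM in iPS SSEA1+ cells. On the lower side the smallest p belonged to Fstl1 (-2.88), F2r (-2.23), Selenoi (-2.62), Galnt4 (-2.02) and Gpc6 (-2.64), and all of these fell in SSEA1+ cells. F2r, the thrombin receptor, was at 78.2, 43.7 and 56.7 CPM on day 12 and 28.4, 20.2 and 32.1 CPM in iPS SSEA1+ cells, against 213, 365 and 368 CPM in iPS SSEA1- cells.

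Against the step from day 9 to day 12 in SSEA1+ cells, which shares the day 12 libraries, 13 genes changed more upward and 24 more downward. Higher were Rnf213 (2.69), Elf4 (3.63), Magee1 (2.55), Dip2a (1.78) and Epb41l1 (1.46). Elf4 and Magee1 are X-linked, and Magee1 was at 3.49, 3.15 and 4.57 CPM on day 12 and 8.82, 7.52 and 16.2 CPM in iPS cells. Lower were Stac (-6.28), Myc (-6.08), Sbspon (-5.37), Spry4 (-2.44) and Apol6 (-6.13). Stac, an adaptor of calcium channels, was at 34 CPM on average on day 9, at 2.11, 12.2 and 28.5 CPM on day 12 and at no more than 0.105 CPM in iPS cells.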

How the results depend on the processing

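Counts of the step ranged from 292 to 644 increases and 577 to 1160 decreases when 1 library was left out, with fewer samples in the fit. With only the 6 libraries 622 genes fell. Equal replicate numbers share no stated origin, and the pairing check failed for the step. With a replicate block in the 6 libraries 419 genes rose and 306 fell, with the block and the GC trend removed 401 and 294, and the block over all 33 libraries gave 852 and 1123. DESeq2, RLE factors, no filter, a filter at 1 CPM and the GC trend alone gave 532 to 824 increases and 929 to 1100 decreases. The difference from the SSEA1- step had 34 to 179 higher and 105 to 513 lower genes when 1 library was left out. It had 169 and 479 with DESeq2, 42 higher without a filter, and 127 higher with the replicate block. The difference from the earlier step had 36 and 82 genes with DESeq2 and 20 and 39 with the replicate block. The X-linked difference lay between 0.402 and 0.533 without any 1 library, at 0.468 with the GC trend removed and at 0.438 for genes of at least 10 CPM. Of 130 genes followed through the alternatives, 109 were called, and 68 of these kept their call without any 1 of the 6 libraries; none was called in the opposite direction in any setting. With only the 6 libraries 18 of the 130 lost their call, and 40 did with the replicate block in the 6 libraries, where the AP-1 list had 0 decreases in place of 7 and the TGF-beta list 0 in place of 3. Low genes, such as the 2-cell-stage genes near 1 CPM, are limited by depth.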

Other observations

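Some lists outside the main account held a few called genes. Among 10 tested muscle and heart markers 3 rose from low levels (30%, beside 3.74% of all genes). Myl7, an atrial myosin light chain, was at 1.35, 0.893 and 0.14 CPM on day 12 and 2.07, 2.9 and 8.39 CPM in iPS cells, while Myog and Nkx2-5 stayed at or under 1.26 CPM. DESeq2 called 1 of the list, as did the fit of only the 6 libraries. The list had no increase without day 12 replicate 3 and 1 without day 12 replicate 2 or iPS replicate 3. Of 31 interferon and antigen presentation genes 6.45% were called each way, near the 3.74% and 5.75% of all genes, and the counts ranged from 0 to 4 up and 0 to 3 down when 1 library was left out: 2 rose, Oas1a and Oas2, which make a signal for RNA decay, and 2 fell, Ddx58 and Ifih1, which are sensors of viral RNA. Oas2 went from 2.55, 1.62 and 1.59 to 4.3, 6.52 and 9.55 CPM, and Ddx58 from 86.2, 88.4 and 72.1 to 27.4, 44.4 and 20.4 CPM. In one-carbon metabolism Aldh1l1, a folate enzyme, rose from 9.93, 6.34 and 4.48 to 31.8, 26 and 17.6 CPM.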
